A study of Homo sapiens with 3 samples.

Results

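Domain VI and the 3′ end of 28S, the large-subunit ribosomal RNA (rRNA), were taken as positions 4576 to 5070 of the 5070 positions of 28S, counted from 1. These 495 positions, out of 7218 positions of 4 rRNAs, were chosen by their place in the sequence and not by their values. The study profiled the RNA contacts of METTL5 by eCLIP, in which UV light crosslinks RNA to the proteins it touches and the RNA that is pulled down with 1 protein is sequenced. The cells were 293T, a line derived from human embryonic kidney. The 2 eCLIP libraries came from stable lines that carry METTL5-HA, pulled down through the HA tag, and the 1 Input library came from 293T cells whose genotype is given as WT. Cells of all 3 libraries were crosslinked at 254 nm with 400 mJ per square cm. The labels name neither the promoter of the METTL5-HA construct nor the number of clones, and no untagged immunoprecipitate was analysed here. eCLIP and Input therefore differ in genotype as well as in the pulldown, and these cannot be told apart. Markers of 293T were not analysed here, because the table covers rRNA positions only. The limits of the domain were those of the positional rule and were not checked against a sequence.

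METTL5 is the methyltransferase that, with its partner TRMT112, places N6-methyladenosine near the 3′ end of 18S, the small-subunit rRNA. 28S belongs to the large subunit and folds into 6 domains, of which domain VI is the last. Domain VI begins close to the sarcin-ricin loop, the conserved hairpin that helps translation factors with GTPase activity to act on the ribosome and that ricin and sarcin attack. It also carries ES39L, an expansion segment of eukaryotic ribosomes that lies on the outer face of the large subunit, and it runs to the 3′ end of 28S.

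The values were read depths, the count of reads that cover a given base. Over all of 28S, depth averaged 3302 reads in eCLIP replicate 1, 1320 in eCLIP replicate 2 and 6117 for Input. The deepest 28S positions had 7465, 7672 and 7986 reads in eCLIP replicate 1, eCLIP replicate 2 and Input, closer together than these means. Depth stayed under 8000 reads at every position, and the sources used here do not say whether a limit was set on it. Whether such a limit narrowed the differences between positions or libraries was not tested. Of the domain VI positions 53.3% lay at 4000 reads or more in eCLIP replicate 1 and 0% in eCLIP replicate 2, while 84.8% did so in Input. Of the 5 annotated 28S genes, only RNA28SN5 has the length of the table's 28S. The copies are near-identical, so counts cannot be assigned to a copy.

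Domain VI as a whole took about the part of 28S reads that its length would give, in eCLIP as in Input. It makes up 9.76% of 28S and held 10.8% ± 1.64 (SD, n = 2) of summed 28S depth in eCLIP, against 10.6% in Input. The share was 11.9% in eCLIP replicate 1 (exact 95% binomial interval 11.8% to 12.1%) and 9.61% in eCLIP replicate 2 (9.42% to 9.81%), against 10.6% in Input (10.5% to 10.6%). As log2 ratios to Input, these were 0.18 and -0.13, so the replicates lay on opposite sides of Input and their mean, 0.02 ± 0.22 (SD, n = 2), was smaller than their spread. The intervals take summed depth divided by 75, the span of a read found below, as the number of reads. They cover counting error only, since PCR copies of 1 molecule are not independent. Shares and the depths of positions and blocks were not tested.

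Mean depth in domain VI was 4036 reads in eCLIP replicate 1, against 3223 over the other 4575 positions of 28S in that library. In eCLIP replicate 2 it was 1300 reads in domain VI, against 1322 elsewhere on 28S, and in Input 6611, against 6063. The median position told more of a difference than the mean. Median depth in domain VI was 1.43 and 1.70 times that of the other positions in eCLIP replicates 1 and 2 and 1.24 times in Input. Among the 10 stretches of 495 nt counted back from the end of 28S, domain VI ranked number 4 in both eCLIP libraries and number 2 in Input. In eCLIP it was deeper than the stretch just before it, positions 4081 to 4575. The ratio of mean depth in domain VI to that stretch was 1.59 in eCLIP replicate 1 and 2.01 in eCLIP replicate 2, against 1.04 in Input.

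**Figure D1:**
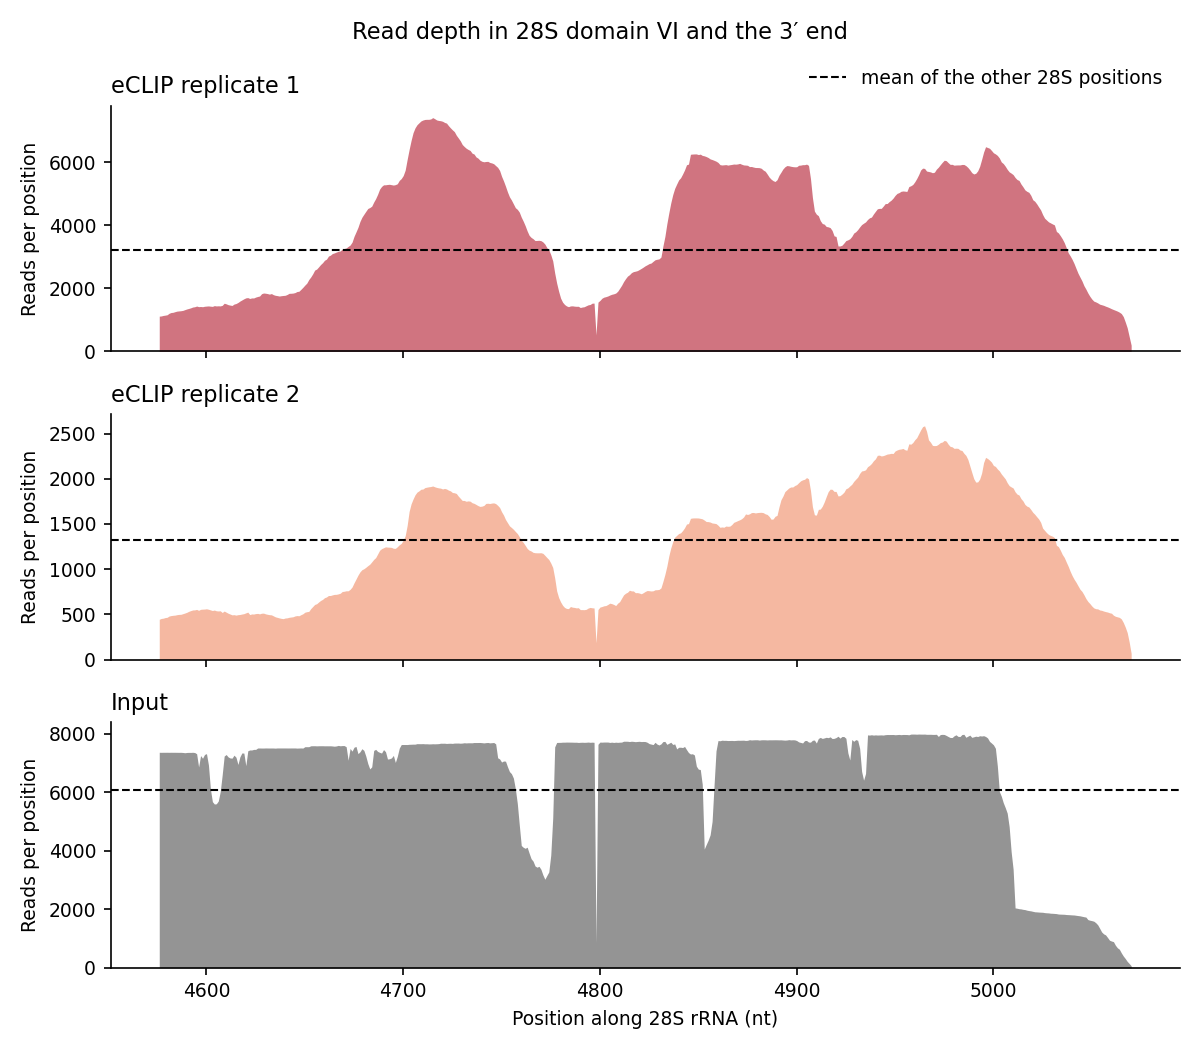
Read depth (reads per position, linear axes that differ between panels) along 28S positions 4576 to 5070 in eCLIP replicate 1, eCLIP replicate 2 and Input. The dashed line is the mean of the other 28S positions of the same library. Both eCLIP libraries show a low start, a hump with its top at 4715 and a second high stretch that ends in a slope to 5070, while Input stays mostly above 6000 reads, with dips, up to 5001 and then drops to 2047 at 5011 and 70 at 5070.

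Within the domain, eCLIP depth was far from even, as the plot of depth by position shows. The deepest position of eCLIP replicate 1 was 4715, with 7419 reads. The deepest of eCLIP replicate 2 was 4965, with 2585 reads, and that of Input was 4959, with 7986. The last position, 5070, was the shallowest in each library, with 197 and 69 reads in eCLIP replicates 1 and 2 and 70 in Input. The first, 4576, had 1118 and 446 reads in eCLIP and 7363 in Input. From the lower to the upper quartile, positions lay between 1908 and 5840 reads in eCLIP replicate 1, between 605.5 and 1852 in eCLIP replicate 2 and between 7063 and 7759 in Input. The eCLIP libraries thus spread over a wide range, and Input over a narrow one that lay close to its highest depth on 28S, 7986 reads.

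Blocks of 100 nt placed this variation. The first block, 4576 to 4675, at the side of the domain where the sarcin-ricin loop lies, was the only one of the 5 whose mean depth lay below that of the rest of 28S in both eCLIP libraries. By median depth the third block, at 0.958 and 0.951 times, did so too. Mean depth of the first block was 1914 and 551.9 reads in eCLIP replicates 1 and 2 and 7313 in Input. These are 0.594 and 0.417 times the mean of the other 28S positions in the eCLIP libraries and 1.21 times in Input. On the log2 scale eCLIP over Input, each set against the rest of 28S, came to -1.28 ± 0.36 (SD, n = 2). The value was below 0 in both replicates, at -1.02 and -1.53.

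The second block, 4676 to 4775, held the hump. Its mean depth was 5567 and 1500 reads in eCLIP replicates 1 and 2 and 6798 in Input, which are 1.73, 1.13 and 1.12 times the rest of 28S. The hump lay at one place in both replicates: the deepest position of the block was 4715 in each, with 7419 and 1920 reads. Against the rest of its 28S, replicate 2 nevertheless stood about level with Input, and the log2 ratio to Input, 0.62 and 0.02, averaged 0.32 ± 0.43 (SD, n = 2), less than its spread. The third block, 4776 to 4875, also differed between eCLIP and Input by less than the spread, with 3643 and 1007 reads in eCLIP and 7368 in Input and a log2 ratio of -0.39 ± 0.40 (SD, n = 2).

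The fourth block, 4876 to 4975, was the most alike between the replicates in mean depth against the rest of 28S, though not in median depth, at 1.77 and 2.45 times. Its mean depth was 4996 and 2024 reads in eCLIP replicates 1 and 2 and 7815 in Input. Relative to the rest of 28S these are 1.55, 1.53 and 1.29, a log2 ratio of 0.26 ± 0.01 (SD, n = 2). In Input this block was deeper on average than 100% of the other 28S positions. In the last block, 4976 to 5070, eCLIP and Input parted in the other way from the first block. Mean depth there was 4060 and 1424 reads in eCLIP replicates 1 and 2 and 3614 in Input, or 1.26 and 1.08 times the remaining 28S positions for eCLIP and 0.596 times for Input. The log2 ratio was 0.97 ± 0.16 (SD, n = 2), above 0 in both replicates.

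**Figure D2:**
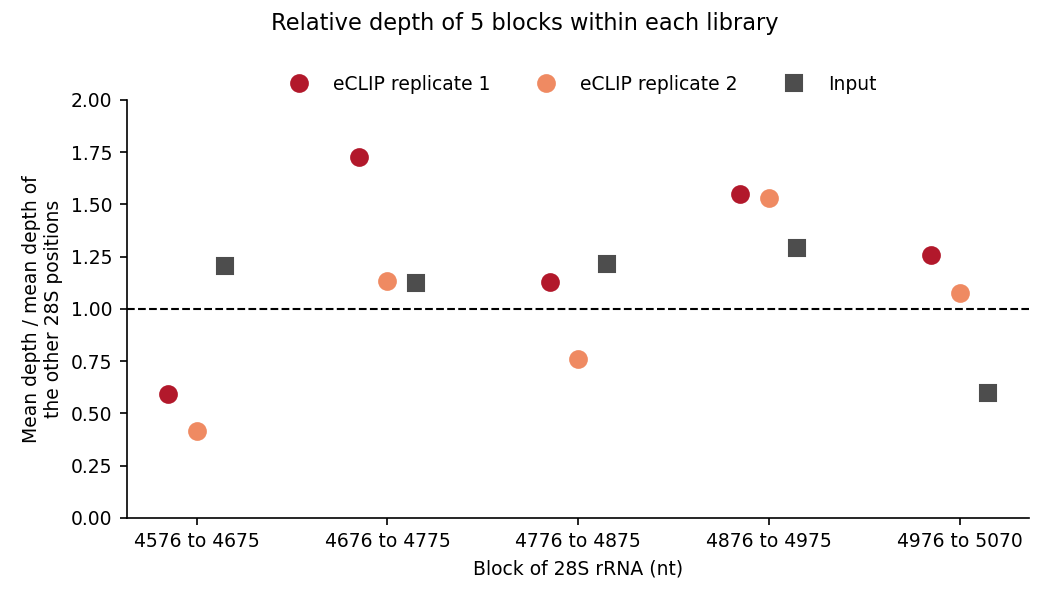
Mean depth of 5 blocks of domain VI divided by the mean depth of the other 28S positions of the same library (1 point per library; the dashed line marks equality). The eCLIP points lie below Input in the first block, at 0.594 and 0.417 against 1.21, and above it in the last, at 1.26 and 1.08 against 0.596.

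Windows of 25 nt, tested across all 290 windows of the 4 rRNAs, asked where eCLIP depth differed from Input. The spread used was a trend over all windows, not that of the replicates within a window. Of the 20 windows of domain VI, 4 were higher in eCLIP, with 0.05 as the threshold of the adjusted p (edgeR's quasi-likelihood test with TMM factors, adjusted by Benjamini-Hochberg for all windows). Over all windows 7.59% were called higher, and 9.84% of the 183 windows of 28S outside the domain. None of the 20 was called lower by edgeR, and 0 were lower at an unadjusted edgeR p under 0.05. DESeq2's test called 1 lower by adjusted p, and 2 were lower at its unadjusted p under 0.05. Over all windows edgeR called 36.6% lower and DESeq2 38.3%, and among the other 28S windows they called 15.3% and 18% lower. The domain's median edgeR log2 fold change was 1.12, beside 0.57 for the other 28S windows and -0.14 for all windows. Log2 values of windows are scaled by TMM factors and those of blocks by the rest of 28S, so the scales differ. In eCLIP replicate 2, for example, the second block stood at 0.02 and its windows at 0.63 to 1.46.

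The 4 higher windows made up 2 places. The first was the single window 4751 to 4775, on the falling side of the hump, with log2 ratios of 1.37 in replicate 1 and 1.46 in replicate 2 (edgeR log2 fold change 1.41, adjusted p = 0.00637). Its mean depth was 4049 and 1291 reads in eCLIP and 4618 in Input. This call was lost with library totals (edgeR adjusted p = 0.177), with the 28S total (log2 fold change 0.55, adjusted p = 0.444) and with windows of 50 nt (0.265) and 100 nt (0.0521). The other was the run of 3 windows from 5001 to 5070, the 3′ end, with log2 ratios of 2.21 and 2.43 and edgeR log2 fold changes from 2.25 to 2.41 (adjusted p from 1.28e-07 to 0.00164). With a read span of 75 nt, neighbouring windows share reads, so these 3 windows are not independent tests. With library totals the window 5051 to 5070 was lost (edgeR adjusted p = 0.194). With the 28S total the windows 5026 to 5050 (edgeR adjusted p = 0.0724) and 5051 to 5070 (0.323) were lost. The window 5001 to 5025 was kept there, at an edgeR adjusted p of 0.0454. The run's windows 5001 to 5025, 5026 to 5050 and 5051 to 5070 averaged 5362, 3084 and 1227 reads in the first eCLIP library. In eCLIP replicate 2 they had 1810, 1027 and 455.5 reads, and in Input 3371, 1798 and 850.9.

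These 4 windows were those with the lowest Input depth in the domain, not those with the highest eCLIP depth. Mean Input depth was 850.9 to 4618 reads in the 4 higher windows and 6868 to 7973 in the other 16. eCLIP depth in the 2 sets overlapped, at 1227 to 5362 reads against 1305 to 7098 in replicate 1. In replicate 2 it was 455.5 to 1810 against 486.2 to 2411. The called windows of the 3′ end stood at 1.66, 0.957 and 0.381 times the rest of 28S in eCLIP replicate 1, against 0.556, 0.297 and 0.14 times in Input. The part that Input depth had in these calls was not tested.

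The deepest eCLIP windows did not pass. The window 4701 to 4725, the deepest of eCLIP replicate 1 with 7098 reads on average, had log2 ratios of 1.45 and 1.23 (edgeR adjusted p = 0.172). The window 4951 to 4975, the deepest of eCLIP replicate 2 with 2411 reads, had 1.03 and 1.57 (edgeR adjusted p = 0.191). There were 10 uncalled windows with edgeR log2 fold changes between 0.79 and 1.34, and DESeq2's test called all of them higher: it called 14 of the 20 windows higher, beside 37.9% of all windows and 52.5% of the other 28S windows. At the 5′ side of the domain the 3 windows from 4576 to 4650 had edgeR log2 fold changes of -0.72, -0.51 and -0.56 with adjusted p of 0.114, 0.244 and 0.191. The first of them was called lower with the 28S total in place of TMM (log2 fold change -1.61) and with the 5S total (-0.99). The test has 1 residual degree of freedom per window, from 2 eCLIP libraries, and took its spread from a trend over all windows. The number of calls moved with the scaling. The log2 fold change was above 0 in 15 of the 20 windows with TMM and in 12 with the 28S total. With library totals 2 of the 20 windows were higher, and with the 28S total 1 was higher and 1 lower.

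**Figure D3:**
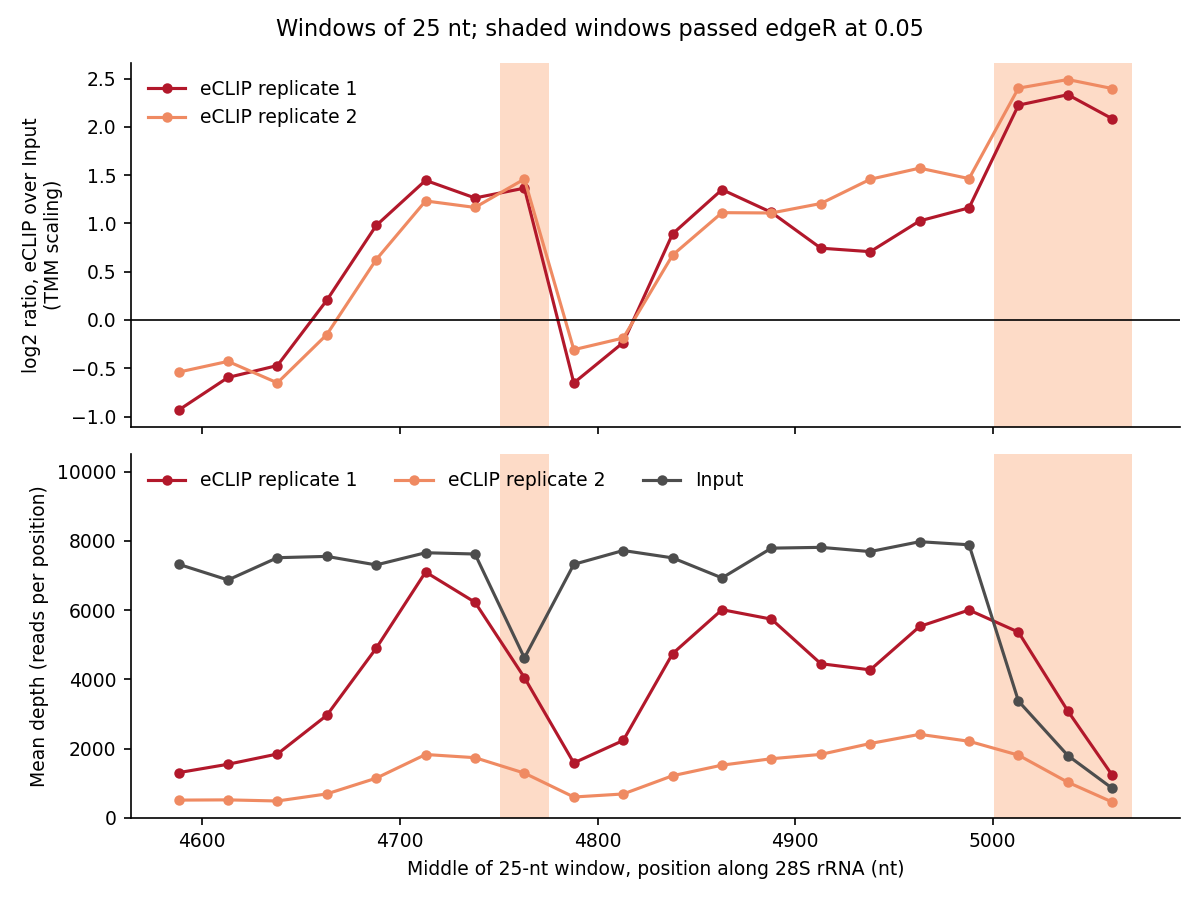
Upper panel: log2 ratio of each eCLIP replicate to Input (TMM scaling) in the 20 windows of 25 nt. Lower panel: mean depth of the same windows in eCLIP replicate 1, eCLIP replicate 2 and Input, in reads per position. Shaded windows, 4751 to 4775 and 5001 to 5070, were called higher in eCLIP, and Input is lowest there, at 850.9 to 4618 reads.

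Single-base steps, the change in depth from one position to the next, show, in net, where reads begin and end. Across 28S, steps down followed steps up best at a distance of 75 nt, among distances from 20 to 200 nt, in all 3 libraries. Within domain VI that distance was again 75 nt in eCLIP replicate 1 (r = 0.83 across positions) and eCLIP replicate 2 (r = 0.75), and 76 nt in Input (r = 0.49). The span of a read was therefore taken as 75 nt. The typical step in the domain was larger in eCLIP than elsewhere on 28S and smaller in Input. The median step, regardless of sign, was 41 reads or 1.24% of mean 28S depth in eCLIP replicate 1, against 0.757% in the rest of 28S. It was 0.909% in eCLIP replicate 2, against 0.757% elsewhere, and 0.163% in Input, against 0.409% elsewhere.

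Steps of at least 10% of the mean 28S depth were counted as large. eCLIP replicate 1 had 10 in domain VI, or 2.02 per 100 nt, against 1.27 per 100 nt in the rest of 28S. eCLIP replicate 2 had 5, or 1.01 per 100 nt, against 2.80, so the eCLIP replicates did not point one way. Input had 18, or 3.64 per 100 nt, against 0.59. Large steps were therefore denser in the domain than elsewhere in eCLIP replicate 1 and Input, and sparser in eCLIP replicate 2.

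The hump of the second block was built from steps that recurred in both eCLIP libraries. From 4697 to 4712 every step was up in both, with a summed gain of 2073 reads in replicate 1 and 677 in replicate 2. The steps 75 nt later, 4772 to 4787, summed to -2038 and -598 reads. The sharpest steps of this rise were at 4702 and 4703. At 4702 depth stepped up by 337 reads in replicate 1 and 114 in replicate 2, and 75 nt later, at 4777, it changed by -384 and -116. At 4703 the step was 315 and 155 reads, with -321 and -143 at 4778. The gain at each of these bases and the loss 75 nt later were nearly equal in size. Input did not share them: its steps were -1 and 8 reads at 4702 and 4703, and 2425 and 152 at 4777 and 4778.

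A further shared rise ran from 4827 to 4848. It added 3462 reads in eCLIP replicate 1, or 105% of the mean 28S depth, and 808 in eCLIP replicate 2, or 61.2%, while Input changed by -372. Its largest steps in replicate 1 were 404 reads at 4834, 349 at 4832 and 345 at 4835, where replicate 2 had 91, 71 and 113. The matching loss was sharp in both. The 5 bases from 4906 to 4910 together changed depth by -1589 and -415 reads, and 4908 alone by -609 and -182, the largest step down of the domain in each eCLIP library other than that at 4798. Input changed by 65 reads at 4908. Over the whole span 75 nt after the rise, 4902 to 4923, replicate 1 changed by -2538 reads and replicate 2 by -127.

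Close to the end, 4992 to 4996 was the last shared rise, with 844 reads in eCLIP replicate 1 and 273 in eCLIP replicate 2, against -10 in Input. A read of 75 nt that starts at 4996 ends on the last base, 5070. The largest step of this rise in replicate 2 was 116 reads at 4995, where replicate 1 had 234, and the step 75 nt on, at 5070, was -274 and -126 reads. In all, 6 rises of at least 20% of mean 28S depth were shared by the eCLIP libraries in domain VI, or 1.21 per 100 nt, and 29 in the rest of 28S, or 0.634 per 100 nt. This definition was chosen after the values were seen, and 1 of the 6 was the return from the single-base gap at 4798. Shared falls by the same rule numbered 5 in domain VI, or 1.01 per 100 nt, and 33 in the rest of 28S, or 0.721 per 100 nt. These 5 include the drop at 4798 and the final decline from 4997 to 5070. Of the 5 largest steps up in each eCLIP library 3 were at the same base in both, and likewise 3 of the 5 largest steps down. In each direction 1 of these 3 was a step of the gap, up at 4799 and down at 4798, which Input also had.

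**Figure D4:**
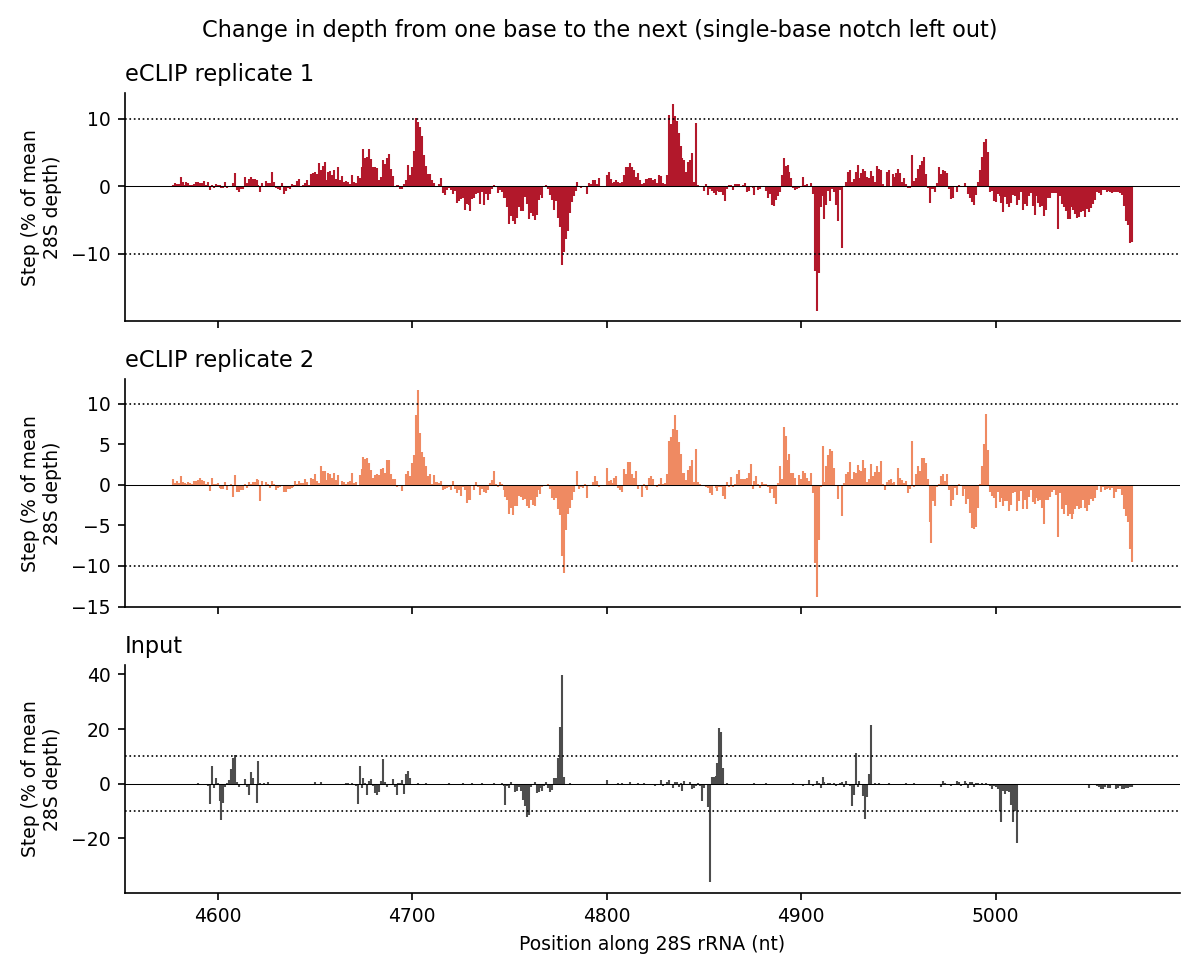
Change in depth from one base to the next, as a percentage of the mean 28S depth of the library, along domain VI in eCLIP replicate 1, eCLIP replicate 2 and Input (the scales differ; dotted lines mark 10%). The gap at 4798 is left out. The eCLIP libraries share steps up near 4702 and 4834 and steps down 75 nt later, near 4777 and 4909, which Input lacks.

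The largest steps of the domain in all 3 libraries belonged to 1 base. At 4798 depth dropped to 523 reads in eCLIP replicate 1, between 1533 at the base before and 1564 at the base after. It was 186 in eCLIP replicate 2, between 571 and 554, and 851 in Input, between 7704 and 7636. Expressed against the mean of both neighbours, 33.8% (exact 95% binomial interval 31.4% to 36.2%) and 33.1% (29.2% to 37.2%) of the depth remained in eCLIP and 11.1% (10.4% to 11.8%) in Input. Depth to either side was almost level, with differences across the gap of 31, -17 and -68 reads, so the loss at this base was made up at the next. Only 2 other positions of 28S had a depth under 70% of the lower neighbour in any library, 2196 and 3160, and both had it in all 3. At 2196, 69.2% and 68.7% of the neighbours' depth remained in eCLIP and 55.3% in Input. At 3160 the values were 63.4% and 60.7% in eCLIP and 69.0% in Input, so the gap at 4798 was the deepest of the 3 in each library. The cause of the gap was not tested. It touches 1 of the 25 bases of the window 4776 to 4800.

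Input had features of its own that eCLIP shared only in part or not at all. Outside the last 70 nt and apart from 4798, Input lay under 6000 reads in 3 places, 4603 to 4606, 4758 to 4776 and 4853 to 4857. The widest was lowest at 4772, where eCLIP had 3406 and 1153 reads and Input 3026. A fall lay at the same place in all 3 libraries: from 4747 to 4767 depth changed by -2437 and -551 reads in eCLIP and -4219 in Input. Over the bases 75 nt earlier, 4672 to 4692, eCLIP had gained 2014 and 483 reads, while Input had changed by -420. The return from the dip was not shared: from 4771 to 4784 depth changed by -2096 and -618 reads in eCLIP and 4345 in Input. The last of the 3 places was lowest at 4853, where eCLIP had 6207 and 1543 reads, without a dip, and Input 4057. Large steps of Input also lay outside these places, such as those at 4928, 4933 and 4936. Steps of at most 3 reads made up 4.24% of the domain's steps in eCLIP replicate 1, against 11.1% elsewhere on 28S. The shares were 17.4% against 25.8% in eCLIP replicate 2 and 25.7% against 15.5% in Input. The limit of 3 reads was not scaled to depth, so these shares are to be compared within a library only.

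Over the last 70 nt the eCLIP libraries and Input lost their reads in different ways. At 5001 depth was 6268 and 2136 reads in eCLIP replicates 1 and 2 and 7500 in Input. In both eCLIP libraries depth first lay under 0.5 times that value at 5038, 32 nt before the last base. In Input this point came at 5010, 60 nt before it. The eCLIP slope was gradual, with 5520 and 1856 reads left at 5011 and 4344 and 1454 at 5025. Input had dropped to 2047 reads at 5011 and then held a shelf, with 1898 at 5025 and 1612 at 5050. The eCLIP replicates had 1662 and 593 reads at 5050. Over the final bases all libraries ran out. Depth at 5060, 5069 and 5070 was 1355, 471 and 197 reads in eCLIP replicate 1, 513, 195 and 69 in eCLIP replicate 2, and 915, 149 and 70 in Input. At 5070 this left 3.14% and 3.23% of the depth at 5001 in eCLIP and 0.933% in Input. The 3 terminal windows called higher thus begin where Input depth drops, between 5001 and 5011.

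**Figure D5:**
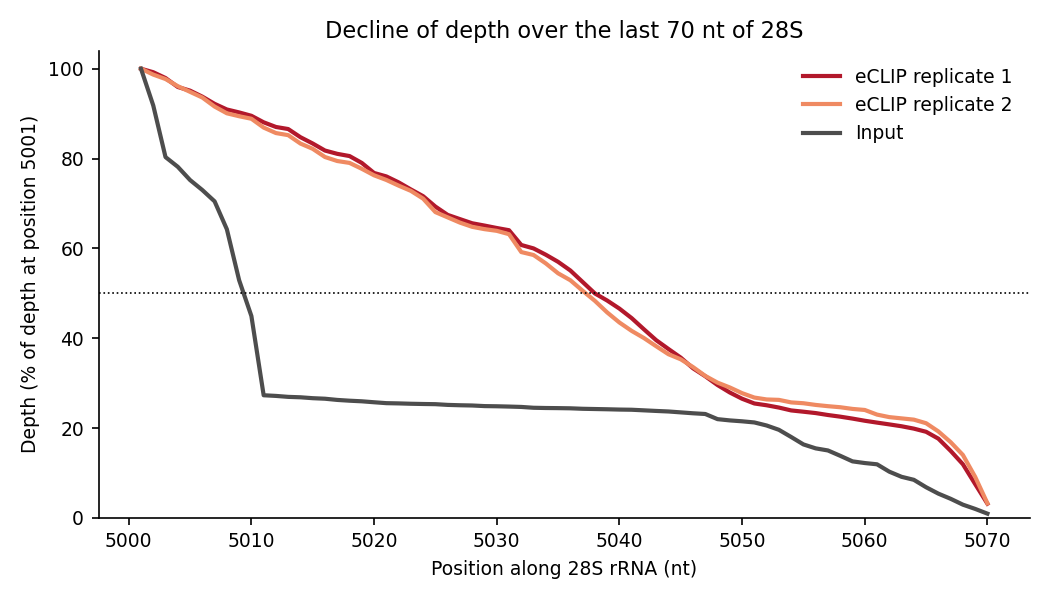
Depth over positions 5001 to 5070 as a percentage of the depth at 5001 in eCLIP replicate 1, eCLIP replicate 2 and Input. The eCLIP lines lie close together and pass under 50% at 5038, while Input does so at 5010 and then declines slowly, to 1612 reads at 5050.

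The eCLIP replicates had like profiles in the domain. Log2 depth at its 495 positions gave a Pearson's r of 0.93 and a Spearman's rho of 0.82 between them, and for steps outside the gap at 4798 the values were r = 0.88 and rho = 0.84. In the rest of 28S log2 depth gave r = 0.92 and rho = 0.91, and steps outside single-base gaps gave r = 0.60 and rho = 0.73. Between the steps of eCLIP and Input over all 495 positions of the domain, r was 0.46 for replicate 1 and 0.52 for replicate 2, and rho was 0.22 and 0.23. With the gap at 4798 left out, r was -0.02 and -0.003, and rho was 0.21 and 0.22, so r rests on the 2 steps of that gap. These are descriptions across positions, which share reads with their neighbours over 75 nt and are not independent replicates.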

How the data were processed

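The 3 libraries were grouped by their titles as eCLIP (replicates 1 and 2) and Input. The authors deposited unscaled counts in 1 table, per the file headers, with a row per rRNA base and a column set per library. They were treated as read depth. STAR and the build hg19 appear in the submitters' processing notes, with no version and no stated role. The sources used here give no counting method, no use of the adapter's random tag against duplicates and no limit on depth. Column sets IP1 and IP2 were matched to the eCLIP titles by number. Total depth was 17574237, 6930845 and 42783485 in eCLIP replicate 1, eCLIP replicate 2 and Input.

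Counts were summed in windows of 25 nt from position 1 of each rRNA, so that 4576 opens a window. A read is thus counted at each position it covers, and neighbouring windows share reads. The quasi-likelihood test of edgeR 4.0.16, in R 4.3.3, compared eCLIP with Input over 290 windows with TMM scaling, filterByExpr (which removed 0 windows) and Benjamini-Hochberg adjustment at 0.05. Each window took the dispersion of the trend, since the prior degrees of freedom were infinite. The labels do not say whether the eCLIP replicates are separate cultures. The p-values then reflect only the spread of these 2 libraries pooled over windows, which may be technical, and not the spread within a given window. Per-replicate log2 ratios used TMM-scaled counts and a pseudocount of 1. Regions named were the domain, its blocks of 100 nt, called runs, the deepest and shallowest positions and the 5 largest steps in each direction per eCLIP library. The members, lists and tests were chosen with earlier results of these data known. Windows of 50 and 100 nt, other scalings and DESeq2 1.42.0 were alternatives. Single-base gaps, Input dips, the decline over the last 70 nt and shared rises and falls were described after their values were seen. No rRNA sequence was used here.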

Additional observations from a re-analysis of the deposited data

How the results depend on the processing

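The number of windows higher in eCLIP, 4 of 20, was 14 with DESeq2's test. It was 2 when scaled by library totals and 1 when scaled by 28S. With windows of 50 nt it was 2 of 10, beside 5 of all 147 windows of that size. With windows of 100 nt it was 1 of 5, beside 13 of all 74. Fewer windows were tested at these sizes. The number lower, 0, was 1 with the 28S total, 1 with the 5S total and 1 with DESeq2's test. Over all windows the median log2 fold change, -0.14, became -0.60 under library totals, -1.0 with the 28S total, -0.41 with the 5S total and 0.03 with DESeq2's size factors. Over all 290 windows, 22 higher and 106 lower became 3 and 89 with library totals, 1 and 105 with the 28S total, 8 and 110 with the 5S total, 40 and 98 with DESeq2's size factors and 110 and 111 with DESeq2's test. The window 4751 to 4775 kept its direction and lost its call with library totals (log2 fold change 0.95, edgeR adjusted p = 0.177), the 28S total (0.55, 0.444) and windows of 50 nt (0.53, 0.265) and 100 nt (0.93, 0.0521). The run 5001 to 5070 kept its direction, with a mean log2 fold change of 1.85 with library totals and 1.45 with the 28S total. With library totals it lost the window 5051 to 5070 (edgeR adjusted p = 0.194). With the 28S total it lost 5026 to 5050 (edgeR adjusted p = 0.0724) and 5051 to 5070 (0.323). The log2 ratio of the domain's share, 0.02, was 0.43 over all 4 rRNAs, 0.64 over 5S and 0.87 over the 257 positions of 28S with Input under 4000, of which 75 lie in the domain. With 1 eCLIP replicate left out it was -0.13 or 0.18. The ratio of the last block, 0.97, was 2.47 with median depth, and that of the fourth, 0.26, was 0.70. Left-out replicates gave -1.53 to -1.02, 0.02 to 0.62, -0.67 to -0.10, 0.25 to 0.27 and 0.85 to 1.08 for the 5 blocks in order. The density of large steps against the rest of 28S, 0.977 as the mean of the eCLIP replicates, was 1.96 with steps of 20%, and 0.361 or 1.59 with 1 replicate left out. The correlation of replicates, 0.93, was 0.86 on a linear scale and 0.88 for steps, the last chosen after seeing the data. The cause was not tested. Window counts were not recomputed with 1 eCLIP library, where no degrees of freedom remain. No paired analysis was possible because the single Input library carries no number to pair by. With depth at most 197 reads, the last base is the least precise.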
